A study of Homo sapiens with 18 samples.

Results

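Ribosome biogenesis and nucleolar factors are the proteins that make, fold, trim and carry the precursors of the 2 ribosomal subunits. The genes described here are a list of 60 such factors, picked by name, of which 59 are in a table of 13661 genes; the large-subunit factor NOP2 is not analysed here. The cells are HEK293, an established human embryonic kidney line (ATCC CRL-1573), and every library used comes from cells given DMSO vehicle for 12 h, with no other agent and no genetic change named in the labels. In each of 3 biological replicates a cytoplasmic lysate was spread through a sucrose gradient, which sorts mRNAs by the number of ribosomes on them, and was pooled into a monosome, a light polysome and a heavy polysome fraction. That gives 9 libraries, 3 per fraction; the 9 libraries of cells given 100 µM minocycline are not analysed here. Each comparison below is therefore one of place in the gradient within the same vehicle-treated cells. The libraries are bulk, so a shift in all cells and a shift in some of them cannot be told apart.

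Ribosomes are built in the nucleolus, where RNA polymerase I copies the rRNA genes. Box C/D and box H/ACA ribonucleoproteins methylate and pseudouridylate the precursor, and the small-subunit processome folds and cleaves its 18S part. A different set of factors, among them GTPases and the PeBoW complex, assembles the large subunit, and both subunits are finished in the cytoplasm. The process takes a large share of a growing cell's synthesis, and many of its genes are known targets of MYC. POLRMT stands in the list although it is the RNA polymerase of mitochondria; its name and role place it outside nucleolar ribosome assembly.

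The libraries held 13447139 to 24441159 reads. All 59 members were among the 12720 genes kept, and the lowest count of a member in a library was 6 reads, for UTP20. The members took 0.562% to 1.78% of a library's reads. Of 8 neuronal and mesenchymal markers of HEK293 cells, 7 were in the table and summed to 0.0468% to 0.541% of a library's reads. Lists of 4 immune, 4 erythroid, 4 hepatocyte and 4 fibroblast markers, with 1, 1, 1 and 3 genes in the table, each summed to at most 0.00124%. Light polysome library 2 stood apart: across genes it correlated at 0.894 on average with the other light libraries and at 0.940 with the heavy ones. Results for the members are given with gradient 2 and, where a count or a call moves, without it.

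Mean ribosome load (MRL) sums a gene's percentages in the fractions of a gradient, weighted 1 for monosome, 2.5 for light and 6 for heavy polysome, so that it runs from 1 to 6. The members lay above the typical mRNA. Their median MRL was 3.65, 3.91 and 3.67 in gradients 1, 2 and 3, against 3.17, 3.17 and 3.16 for all genes kept. By mean over gradients that is 3.74 ± 0.144 (SD, n = 3 gradients) for the members and 3.17 ± 0.009 for all genes. Each fraction was scaled to the same typical gene. The small spread of the median gene therefore follows largely from the scaling and does not measure variation between replicates. For the same reason an MRL is a place relative to other mRNAs and not a count of ribosomes. By mean MRL, 46 of the 59 members (78.0%) lay above the median gene. In all 3 gradients, 34 members lay above it, which is 57.6% of them against 33.6% of genes kept, and 6 lay below it, against 34.3% of genes kept. Those 6 are NOP10, NHP2, EMG1, TSR2, TSR3 and NOP53.

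Gene by gene, 27 of 59 members (45.8%) had a higher MRL than the median gene at an adjusted p under 0.05, beside 22.2% of genes kept. A lower MRL was called for 3 members (5.08%), NOP10, NHP2 and NOP53, beside 26.0% of genes kept, and 29 members passed in neither direction. The test is limma's moderated test of log2 MRL minus the median gene over the 3 gradients, two-sided, with Benjamini-Hochberg adjustment over the 12720 genes. With gradient 2 left out there were 30 members higher and 5 lower: 26 of the 27 stayed, NOL11 left, RRP7A, NOB1, RRS1 and EIF6 joined, and NOL6 and NOP56 joined the lower ones. Without gradient 1 the higher calls fell to 10 members, BOP1, GAR1, GNL2, LTV1, PES1, RIOK1, RRP1, RRP9, UTP18 and WDR43, and the 3 lower ones stayed. The higher counts over all genes kept moved the same way. At the adjusted level, limma called 2829 of them higher with 3 gradients, and the range with 1 gradient left out is given at the end. By limma at an unadjusted p under 0.05, 29 members and 3367 genes kept were higher with 3 gradients. Without gradient 2 these were 34 and 4009, and without gradient 1 they were 19 and 1811.

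**Figure D1:**
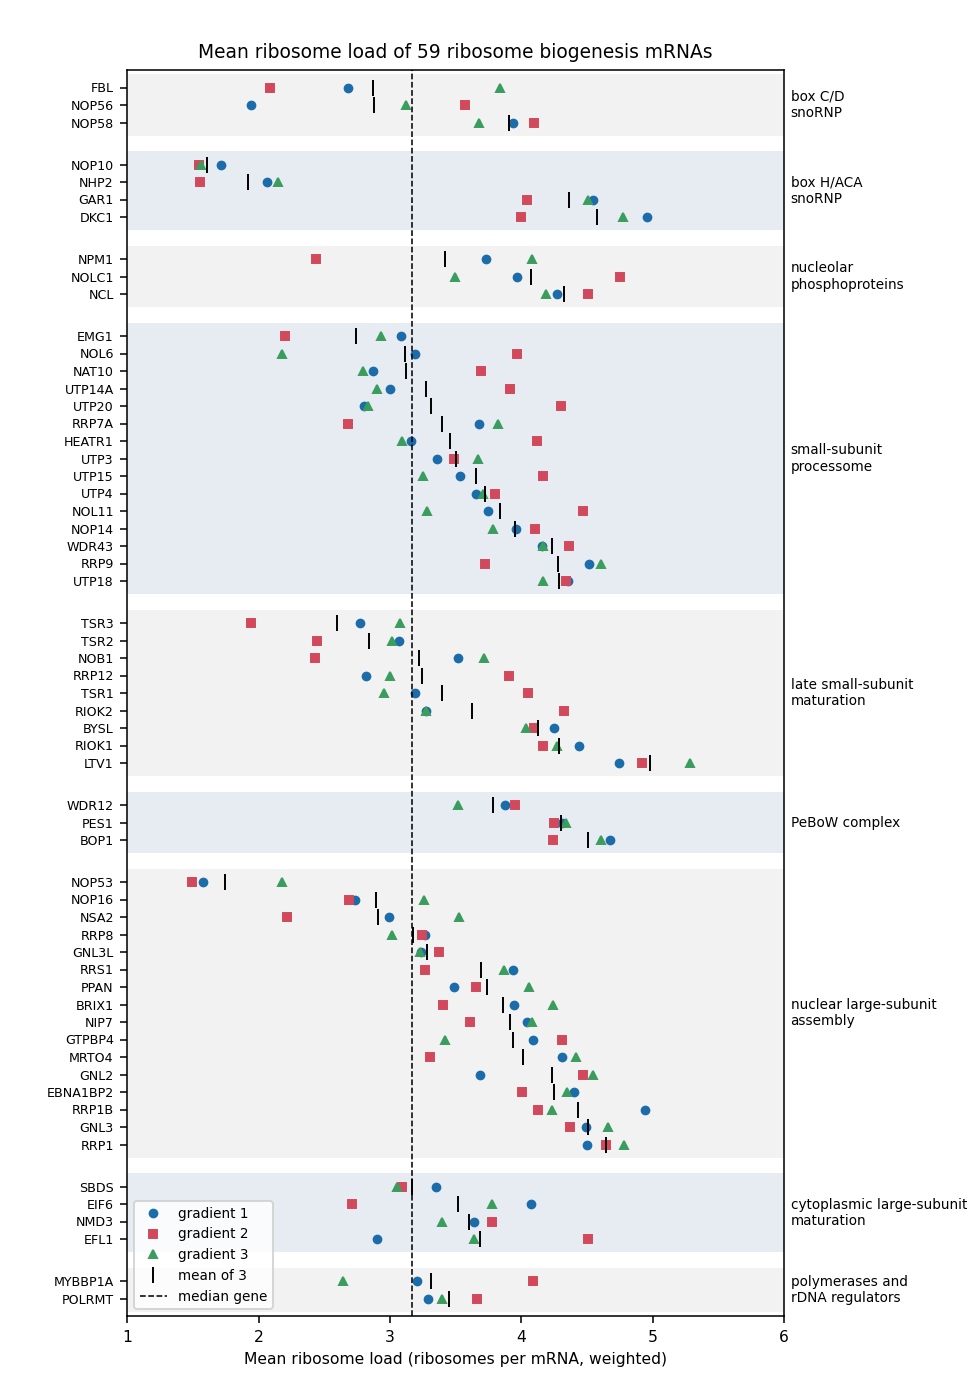
Mean ribosome load (x axis, 1 to 6) of each of the 59 members, grouped by role. Symbols are the 3 gradients, the bar is their mean and the dashed line is the median gene at 3.17; NOP10, NHP2 and NOP53 sit below 2.2 in every gradient, and LTV1 above 4.7.

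LTV1, a factor that rides on the small-subunit precursor until late in its maturation, had the highest MRL of the members (ENSG00000135521, GRCh38 chromosome 6, 143843344 to 143863812). Its MRL was 4.74, 4.92 and 5.28 in gradients 1, 2 and 3, a mean of 4.98 ± 0.276 (SD, n = 3). All 3 gradients lay above every other member's mean. Heavy polysomes held 70.5%, 72.1% and 81.4% of its signal, and the log2 difference of its MRL from the median gene was 0.65 (SE 0.08, limma adjusted p = 0.000258). LTV1 has an annotated pseudogene and shares exon positions with other genes on its strand, so some of its reads may be theirs.

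RRP1, which acts on the precursor of the large subunit, came next with 4.50, 4.64 and 4.78 (mean 4.64 ± 0.142, SD, n = 3). Heavy polysomes held 66.1%, 67.5% and 72.0% of its signal. DKC1 encodes dyskerin, the pseudouridine synthase of box H/ACA particles, and had 4.95, 4.0 and 4.77 (mean 4.58 ± 0.507). Its lowest value came from gradient 2, where 45.4% of its signal lay in light polysomes, against 15.6% and 15.9% in gradients 1 and 3. GNL3, the nucleolar GTPase nucleostemin, had 4.49, 4.37 and 4.66 (mean 4.51 ± 0.147). BOP1 of the PeBoW complex had 4.68, 4.24 and 4.61 (mean 4.51 ± 0.236). All of these were higher than the median gene, with limma adjusted p-values of 0.000515 for RRP1, 0.00275 for DKC1, 0.00216 for GNL3 and 0.000961 for BOP1.

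At the low end, NOP10, a small core protein of box H/ACA particles (ENSG00000182117, chromosome 15, 34341713 to 34343177), had an MRL of 1.72, 1.55 and 1.56. Monosomes held 62.5%, 74.4% and 69.8% of its signal and heavy polysomes 4.40%, 4.61% and 2.94%. The 3 gradients lie close together and below those of every member but NOP53 and NHP2. Its mean of 1.61 ± 0.0954 (SD, n = 3) gave a log2 difference of -0.98 from the median gene (SE 0.09, limma adjusted p = 6.31e-05).

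NOP53, which docks the RNA exosome on the large-subunit precursor (ENSG00000105373, chromosome 19, 47745522 to 47757058), had 1.57, 1.49 and 2.18. Monosomes held 80.0%, 87.8% and 64.4% of its signal, the most by mean of any member. Its mean of 1.75 ± 0.375 gave a log2 difference of -0.88 from the median gene (SE 0.12, limma adjusted p = 0.00039). NHP2, another core box H/ACA protein, had 2.06, 1.55 and 2.15 (mean 1.92 ± 0.324, log2 difference -0.73, SE 0.13, adjusted p = 0.00159). In gradient 2 it held 80.3% in monosomes, against 46.5% and 45.3% in gradients 1 and 3, where light polysomes held nearly as much. TSR3, which modifies a base of 18S rRNA, had 2.77, 1.94 and 3.08 (mean 2.59 ± 0.589) and did not pass the test at an adjusted p of 0.0575.

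The box H/ACA particle was thus split. DKC1 and GAR1, whose 4.55, 4.04 and 4.51 average 4.37 ± 0.282, were both higher than the median gene, and NOP10 and NHP2 were both lower. The lowest of DKC1 and GAR1 in any gradient, 4.0, lies far above the highest of NOP10 and NHP2, 2.15. The 4 proteins form the core of each such particle.

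**Figure D2:**
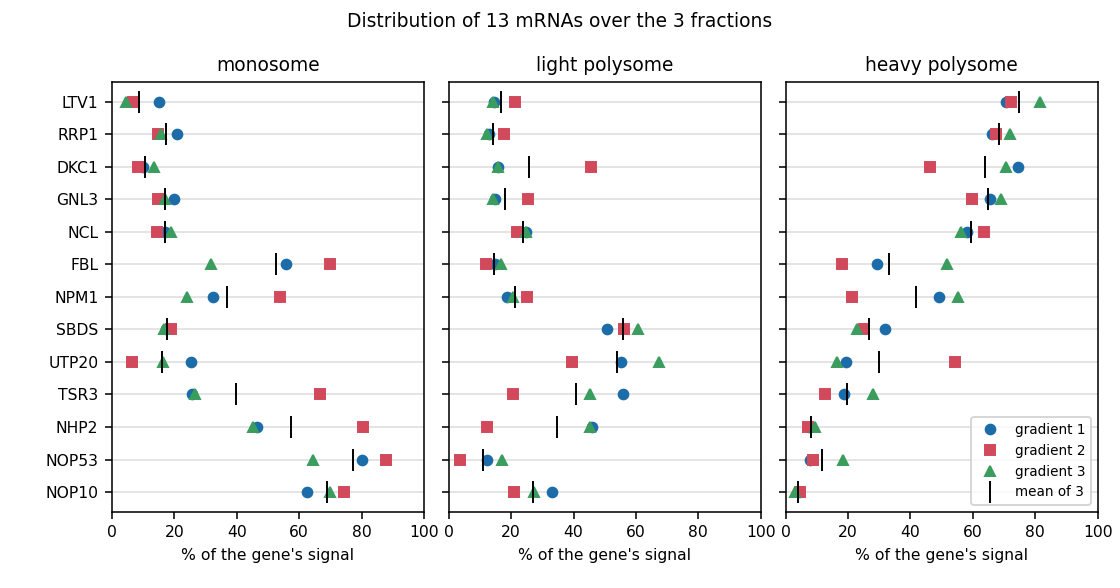
Share of each mRNA's signal (x axis, percent) in monosome, light polysome and heavy polysome for 13 members; symbols are gradients and bars their mean. LTV1, RRP1, GNL3 and NCL lean to heavy polysomes in each gradient, SBDS to light polysomes, and NOP53 and NOP10 to monosomes.

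The box C/D proteins differed among themselves as well. NOP58, a core scaffold of the methylation particle, had 3.94, 4.09 and 3.68 (mean 3.90 ± 0.212) and was higher than the median gene (log2 difference 0.30, SE 0.10, limma adjusted p = 0.0296). FBL, the methyltransferase fibrillarin, had 2.68, 2.08 and 3.84 (mean 2.87 ± 0.891, adjusted p = 0.367). NOP56, the partner scaffold of NOP58, had 1.94, 3.57 and 3.12 (mean 2.88 ± 0.842, adjusted p = 0.319). FBL was lowest in gradient 2 and NOP56 was highest there, and for both the spread over gradients exceeded the distance from the median gene. Without gradient 2, NOP56 was called lower.

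Of the abundant nucleolar phosphoproteins, NCL (nucleolin) had an MRL of 4.27, 4.51 and 4.18, with a mean of 4.32 ± 0.166 and an adjusted p of 0.00532 by limma. Heavy polysomes led in each gradient, with 58.0%, 63.5% and 56.3%. NOLC1, a chaperone of small nucleolar ribonucleoproteins, was also higher (mean 4.07 ± 0.635, adjusted p = 0.0152). NPM1, nucleophosmin, had 3.73, 2.44 and 4.08 (mean 3.42 ± 0.866) and could not be told from the median gene (adjusted p = 0.811). Its monosome share was 32.4%, 53.8% and 24.1%, highest in gradient 2. NPM1 supplied 27.3% to 49.0% of all member reads, and 45 annotated pseudogenes carry its symbol, so reads shared with them make its values uncertain.

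The small-subunit processome had a median MRL of 3.60 ± 0.346 (SD, n = 3) over 15 members, of which limma called 6 higher, UTP4, UTP18, WDR43, NOL11, NOP14 and RRP9. The 6 are 40% of the group, beside 22.2% of genes kept, and the other 9 passed in neither direction. UTP18, part of the UTP-B subcomplex, had 4.36, 4.34 and 4.16 (mean 4.29 ± 0.105, limma adjusted p = 0.0021). WDR43 had 4.16, 4.36 and 4.17 (mean 4.23 ± 0.116, adjusted p = 0.0025). EMG1, a methyltransferase of 18S rRNA, was the lowest at 3.08, 2.20 and 2.93 (mean 2.74 ± 0.472, adjusted p = 0.108).

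Late small-subunit maturation had a median of 3.53 ± 0.451 over 9 members, with LTV1, BYSL and RIOK1 higher and 6 called in neither direction. Those called higher are 33.3% of the group, beside 22.2% of genes kept. RIOK1, an atypical kinase that acts on the last small-subunit precursors, had 4.44, 4.16 and 4.27 (mean 4.29 ± 0.138, limma adjusted p = 0.00218). Its relative RIOK2 had 3.27, 4.32 and 3.27 and did not pass (adjusted p = 0.147). NOB1, the nuclease that trims the 3′ end of 18S rRNA, had 3.52, 2.43 and 3.71 (adjusted p = 0.996).

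All 3 proteins of the PeBoW complex, which processes the large-subunit rRNA, were higher than the median gene, beside 22.2% of genes kept. PES1 had 4.31, 4.25 and 4.34, a mean of 4.30 ± 0.0459, and varied least among the members (limma adjusted p = 0.00188). WDR12 was the lowest of the complex, with 3.88, 3.95 and 3.52 (mean 3.78 ± 0.233, adjusted p = 0.0293). The complex had the highest median of the 9 role groups, 4.30 ± 0.0532.

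Nuclear large-subunit assembly factors had a median of 3.84 ± 0.297 over 16 members, with 10 higher and 1, NOP53, lower. Those are 62.5% and 6.25% of the group, beside 22.2% and 26.0% of genes kept. The higher ones include the GTPases GNL2, GNL3 and GTPBP4 and the assembly factors EBNA1BP2, BRIX1, PPAN, MRTO4 and NIP7, beside RRP1 and its relative RRP1B. EBNA1BP2 had 4.40, 4.0 and 4.35 (mean 4.25 ± 0.216, limma adjusted p = 0.00306), with only 9.95%, 10.9% and 5.27% in monosomes. GNL3L, a relative of GNL3, had 3.24, 3.38 and 3.23 (mean 3.28 ± 0.0826) and did not pass (adjusted p = 0.61). PPAN shares exons with a PPAN-P2RY11 read-through gene, and its value is uncertain for that reason.

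Of the 4 cytoplasmic large-subunit factors, 0 were called in either direction by limma at an adjusted p under 0.05. Among genes kept 22.2% were called higher and 26.0% lower. At an unadjusted p under 0.05, 1 of the 4 was higher, and no other tool was run on MRL. EFL1, the GTPase that works with SBDS to free EIF6 from the new subunit, ranged from 2.90 in gradient 1 to 4.51 in gradient 2. SBDS, the gene of Shwachman-Diamond syndrome, had 3.35, 3.09 and 3.05 (mean 3.17 ± 0.161), almost the value of the median gene. That MRL hides an uneven profile: light polysomes held 50.8%, 56.1% and 60.5% of its signal, monosomes 17.4%, 18.8% and 16.5%, and heavy polysomes 31.8%, 25.0% and 22.9%. In the authors' deposited table each gene has a strict class, and SBDS was the only member in the light class (1.69% of members, against 3.94% of genes kept). SBDS has an annotated pseudogene with its symbol, so shared reads cannot be told apart here. The same classes put 19 members (32.2%) in heavy polysomes, against 13.0% of genes kept, 3 in monosomes (5.08% against 12.2%) and 36 in none (61.0% against 70.9%). Being in none does not mean that no fraction led. Some members without a class were led by heavy polysomes in every gradient, with mean heavy shares of at most 49.9%. Members in the heavy class had at least 51.5%.

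MYBBP1A, a nucleolar protein that binds MYB, had 3.21, 4.09 and 2.64 (limma adjusted p = 0.776). POLRMT had 3.29, 3.66 and 3.40 (adjusted p = 0.228).

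The fractions were then compared directly on log2(normalized count + 1), in 1 limma fit of the 9 libraries. In heavy polysomes against monosomes 22 members were higher, 37.3% beside 24.7% of genes kept, and 3 were lower, 5.08% beside 24.4%; 34 passed in neither direction. The median over members was 0.67, and over genes kept 0.13. The 3 heavy libraries lay above the 3 monosome libraries without overlap for 28 members, beside 31.4% of genes kept, and below them for 4 members, beside 29.0%.

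For LTV1 the normalized counts were 571, 322 and 170 in monosomes, 553, 998 and 549 in light and 2690, 3410 and 3153 in heavy polysomes. Each heavy library lay more than 4 times above each monosome library. The log2 difference was 3.28 (SE 0.42, limma adjusted p = 8.89e-05). For EBNA1BP2 monosome counts of 530, 770 and 323 stood against 3119, 3366 and 3373 in heavy polysomes, a log2 difference of 2.69 (SE 0.38, adjusted p = 0.000149). For NOP10 the order was the opposite, with 11288, 5174 and 16044 in monosomes and 795, 321 and 677 in heavy polysomes. Its groups do not overlap, and the log2 difference was -4.13 (SE 0.59, adjusted p = 0.000156). NHP2 and NOP53 were the other members lower in heavy polysomes, by log2 differences of -2.79 (SE 0.61, adjusted p = 0.00229) and -2.83 (SE 0.47, adjusted p = 0.000399).

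Left-out gradients moved this count: 13 members were higher without gradient 1 and 30 without gradient 2, where 6 were lower. Counts over all genes kept moved in the same direction. At an unadjusted p under 0.05 by limma, 26 members and 3696 genes kept were higher with 3 gradients. Without gradient 1 these were 21 and 2365, and without gradient 2 they were 30 and 4275. At that level 4 members and 3448 genes kept were lower with 3 gradients, and 6 and 4040 without gradient 2. With the replicate number as a block, UTP4 (adjusted p = 0.0528 without the block and 0.0162 with it, by limma) and GTPBP4 (0.0515 and 0.0317) were added to the higher members. With libraries scaled to total reads in place of the authors' size factors, the median gene moved from 0.13 to 1.39 and 49 members were called higher, 83.1% of them beside 60.8% of genes kept.

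**Figure D3:**
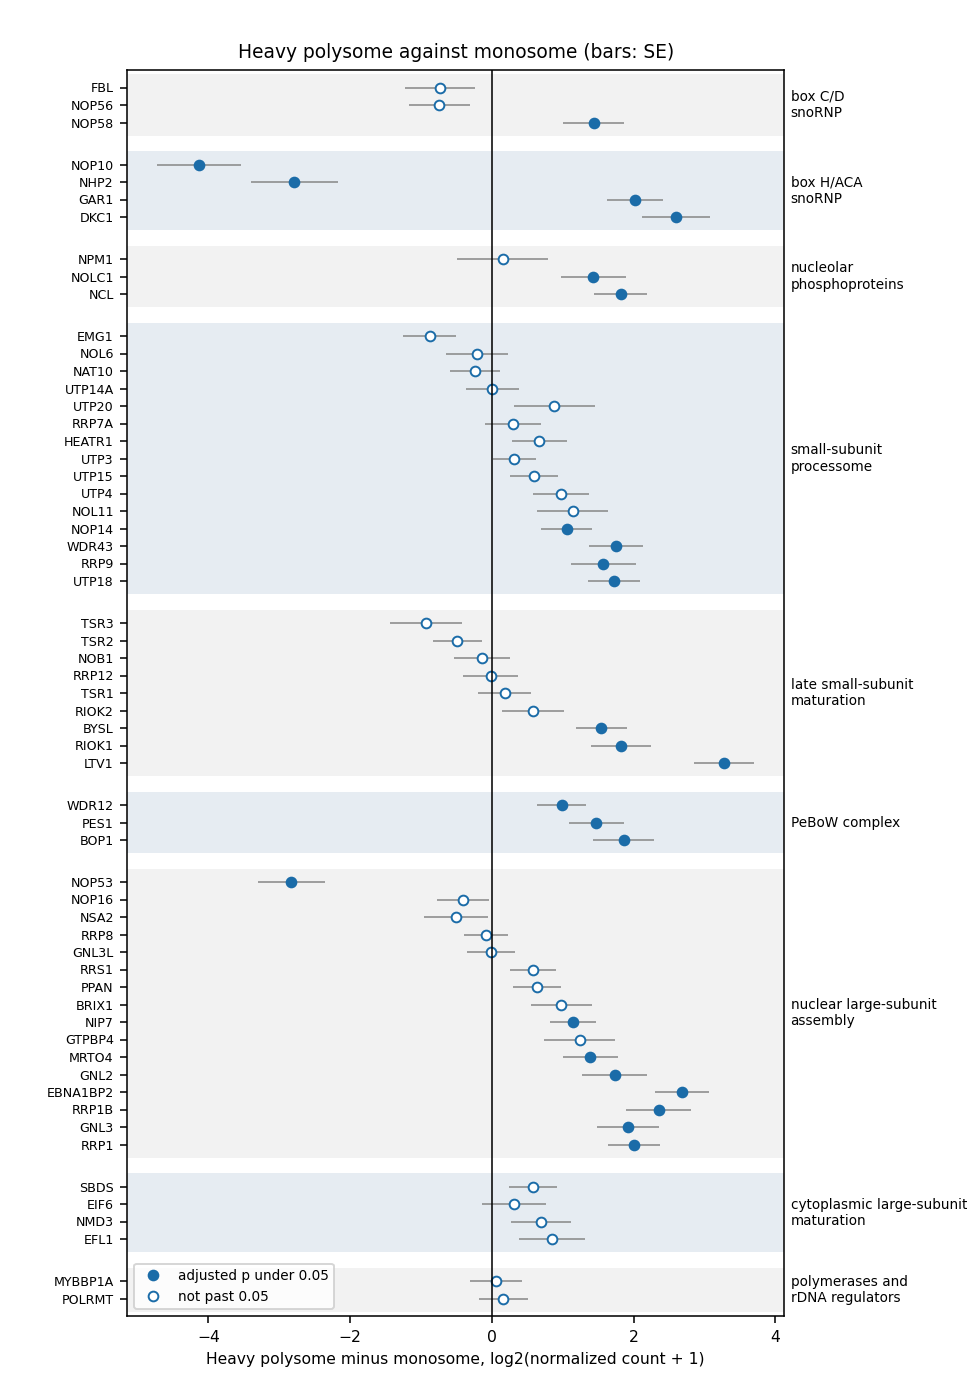
Difference between heavy polysome and monosome on the log2(normalized count + 1) scale (x axis) for the 59 members by role, with bars of 1 SE from limma. Filled points passed an adjusted p of 0.05; 22 lie to the right of 0 and NOP10, NHP2 and NOP53 to the left.

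Light polysomes and monosomes differed for few members. UTP20, EBNA1BP2 and SBDS were higher in light polysomes (5.08% of members, beside 8.47% of genes kept), and FBL, NOP56, NOP53 and POLRMT were lower (6.78%, beside 10.2%). Libraries did not overlap for 7 members higher, beside 17.6% of genes kept, and for 13 lower, beside 18.1%. SBDS counts were 1154, 1476 and 1418 in monosomes, 3371, 4394 and 5188 in light and 2107, 1960 and 1967 in heavy polysomes. All light libraries exceed all others for this gene (light minus monosome 1.66, SE 0.34, limma adjusted p = 0.0041). NOP10 became lower in light polysomes with the replicate block (adjusted p = 0.122 without it and 0.0217 with it). Without gradient 2, 14 members were lower in light polysomes. At an unadjusted p under 0.05 by limma, lower members went from 9 to 26 and lower genes kept from 2145 to 2929. The higher calls depend on single gradients: 1 member was called without gradient 1 and 0 without gradient 3. In the latter, limma gave 5 members at an unadjusted p under 0.05, and edgeR and DESeq2 were not run on that subset. Members higher at that level went from 6 to 4 without gradient 1 and to 5 without gradient 3. Genes kept went from 2041 to 1107 and to 1216.

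Heavy against light polysomes gave 23 members higher (39.0%, beside 14.7% of genes kept) and NOP10, NHP2 and SBDS lower (5.08%, beside 17.5%). Libraries did not overlap for 29 members higher, beside 21.3% of genes kept, and for 3 lower, beside 22.1%. RRP1 counts were 215, 398 and 169 in light and 1091, 1516 and 1004 in heavy polysomes, and the log2 difference of 2.28 (SE 0.37, limma adjusted p = 0.00682) was the largest of the members higher in heavy polysomes. Light library 2 weighed on this comparison, and more members were called without it. With that library alone left out, 33 members were higher and 4 lower. With all of gradient 2 out there were 37 and 6. Counts over all genes kept moved the same way. At an unadjusted p under 0.05 by limma, 32 members and 2789 genes kept were higher with all libraries. Without light library 2 these were 36 and 3593, and without gradient 2 they were 40 and 4091. Without gradient 1 no member was called in either direction. At an unadjusted p under 0.05 by limma 10 were higher and 1 lower, beside 1057 and 1433 genes kept. Without gradient 3 none was called, with 15 and 2 at that level, beside 1319 and 1781 genes kept. The tools edgeR and DESeq2 were not run on these subsets. With the replicate block GNL2 was gained (0.0522 without it and 0.0263 with it) and TSR1 was lost (0.0451 and 0.0504).

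Coding length was taken from the GENCODE gene models, since a longer reading frame has room for more ribosomes. Member reading frames run from 192 nt for NOP10 to 8355 nt for UTP20, with a median of 1542 nt against 1401 nt for all genes kept. Across the 59 members mean MRL and coding length had a Spearman rho of 0.197, and across the genes kept 0.253; these are descriptions over genes that share the same libraries. Set against the median gene of the same length decile, 25 members were higher, beside 23.7% of the genes with a length, and 4 were lower, beside 26.7%. Of the 27 members higher by plain MRL, 23 were also higher on this scale.

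Some short members change place when length is considered. NIP7, a large-subunit factor with a reading frame of 540 nt, lay 0.74 above its decile on the log2 scale (limma adjusted p = 1.46e-05). GAR1, with 651 nt, lay 0.55 above (adjusted p = 0.000107). NOP16, with 534 nt, lay below the median gene by plain MRL (log2 difference -0.13) and 0.30 above its decile (adjusted p = 0.00585). NOP10 and NHP2, with 192 nt and 459 nt, remained lower than their decile, at -0.55 and -0.30. That decile, which also holds NIP7 and NOP16, runs from 75 to 543 nt with a median of 402 nt. NOP10 is shorter than its typical peer and the other members named are longer, and length within the decile was not accounted for. NOP53, with 1434 nt, was as far from its length peers as from all genes, at -0.94 (adjusted p = 4.3e-05), and TSR3 was now called lower at -0.32 (adjusted p = 0.0128).

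**Figure D4:**
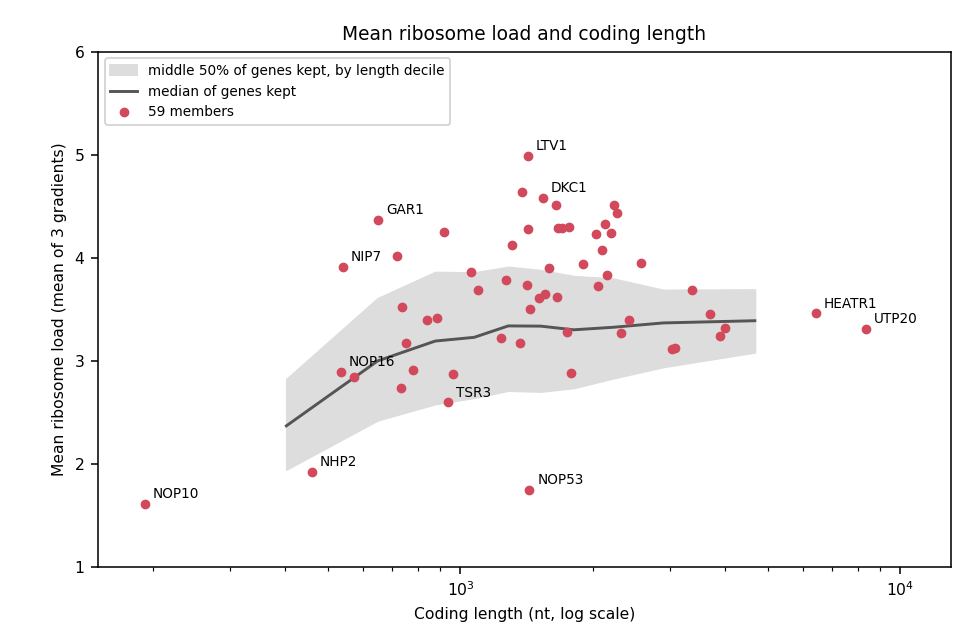
Mean ribosome load over 3 gradients (y axis) against coding length in nt (x axis, log scale). Red points are the 59 members, the line is the median of genes kept in each length decile and the band their middle 50%; NOP53 lies far below genes of its length and NIP7 above them.

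Gradient 2 departed from the others by length. All 16 members in the 3 shortest length deciles (up to 978 nt) had a lower MRL in gradient 2 than the mean of gradients 1 and 3, by a median of -0.70. None of the 9 members in the 2 longest deciles (from 2511 nt) did; their median difference was 1.00. Most genes kept of these lengths went the same way. In the 3 shortest deciles their median difference was -0.243, -0.417 and -0.429, and the upper quartile was negative in each. In the 2 longest deciles it was 0.414 and 0.532, with lower quartiles of -0.0449 and 0.146. Members and other genes of the same length were not compared by a test. Over the 59 members the Spearman rho of the gradient 2 difference with coding length was 0.767, and over the genes kept 0.477. UTP20, a scaffold of the processome, had 2.80, 4.30 and 2.83, and HEATR1, also of the processome, had 3.16, 4.12 and 3.09. Both were led by light polysomes in gradients 1 and 3, with 55.3% and 67.3% for UTP20, and by heavy polysomes in gradient 2, with 54.2%. NPM1, EIF6 and FBL showed the opposite and had their lowest MRL there. The same libraries enter every test above, and the part of this departure in each call was not tested beyond leaving gradient 2 out. Gradient pairs correlated across members at 0.855 (1 and 3), 0.613 (1 and 2) and 0.484 (2 and 3).

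**Figure D5:**
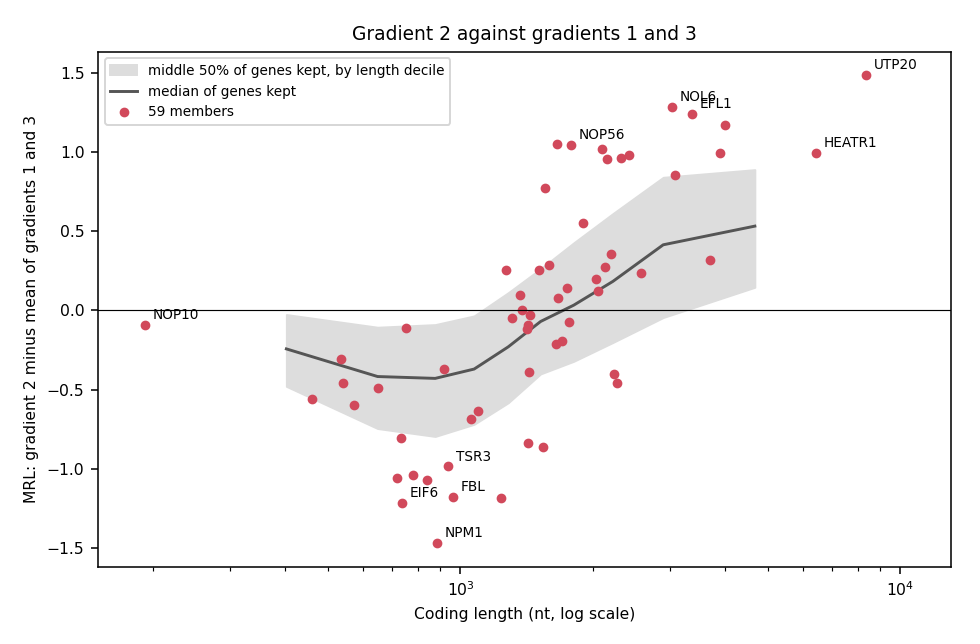
MRL in gradient 2 minus the mean of gradients 1 and 3 (y axis) against coding length in nt (x axis, log scale) for the 59 members (red points), with the median and middle 50% of genes kept by length decile. Short members such as NPM1 and FBL lie below 0 and long ones such as UTP20 and HEATR1 above it.

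The starts of the transcripts are shown because mRNAs of the translation machinery often begin with a C followed by a pyrimidine run, the TOP motif. RefSeq start windows (GRCh38.p14, 250 bases before to 50 after the start) matched 53 of the members; NOP58, NOLC1, RRP12, BOP1, RRP1B and RRS1 had none. A C followed by at least 4 pyrimidines, read on the gene's strand from the annotated start, was found in 6 members (11.3%), EBNA1BP2, FBL, NOB1, NOP53, NPM1 and UTP14A, against 7.41% of genes kept, 4.07% of all 35116 windows and 74.6% of 63 ribosomal protein genes. A gene was counted when any of its windows held the run: 7 members have more than 1 window, and NPM1 and EBNA1BP2 have the run at 1 start and lack it at the other. Which start these cells use was not measured. Below, capitals mark that run, beginning at the annotated start, for NOP53, the lowest large-subunit member, and for NPM1 and FBL, abundant nucleolar proteins, and the start windows of LTV1 and NOP10 are printed for contrast.
NOP53, chr19:47745536-47745560, plus strand: tggctgagttCTTCCTTTgacaaga
NPM1, second start, chr5:171387839-171387863, plus strand: agcctgcgtcCTTTCCCTggtgtga
NPM1, first start, chr5:171387106-171387130, plus strand: agctctcttagggcgatgtccttgc
FBL, chr19:39846365-39846389, minus strand: cgcctgcgctCTTTTCCacgtgcga
LTV1, chr6:143843328-143843352, plus strand: ggccggctgggtgacgttatcgccg
NOP10, chr15:34343122-34343146, minus strand: acgtgacgcggtcgggcggaccact

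Mean MRL of the 6 members with the run went from 1.75 in NOP53 to 4.25 in EBNA1BP2, and the other 4 lay between 2.87 in FBL and 3.42 in NPM1. NOP10 and LTV1, the extremes, have no such run at the start printed. In these libraries the 79 cytosolic ribosomal protein mRNAs had a median MRL of 1.51 ± 0.334 with 78 lower than the median gene by limma and 1 not called. NOP53 is the member nearest to that level besides NOP10.

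The hexamer CACGTG, the E-box that MYC and related factors bind, was searched in the same windows; it reads the same on both strands. It was found in 22 of 53 members (41.5%), against 12.8% of 10366 genes kept and 7.26% of all windows. Of its 26 matches in member windows, 21 began within 50 bases of the start. The windows below, with the hexamer in capitals, cover members with high and low MRL.
LTV1, chr6:143843359-143843378, plus strand: ggggctgCACGTGtggtgag
GNL3, chr3:52686031-52686050, plus strand: cagttcaCACGTGgcgccag
GAR1, chr4:109815786-109815805, plus strand: agaggggCACGTGgcgccgg
FBL, chr19:39846361-39846380, minus strand: tcttttcCACGTGcgaaagc
NOP10, chr15:34343135-34343154, minus strand: tgacgaaCACGTGacgcggt
TSR3, chr16:1351912-1351931, minus strand: tgacggtCACGTGaccacgg

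In FBL the last C of the pyrimidine run printed above is the first base of the hexamer. Members with the hexamer had a median mean MRL of 3.98 and the 31 without it 3.51. Of them 13 and 10 were higher by MRL, beside 45.8% of all 59 members and 22.2% of genes kept. A match is a description and not a bound site, and NOP10 and TSR3 carry it at the low end.

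Around the start codon, 34 of 58 members with a usable model (58.6%) had a purine 3 bases before the ATG and a G right after it, against 45.7% of 12384 genes kept. Their median mean MRL was 3.70, against 3.43 for the other members. RRP8, NPM1 and EIF6 had no purine at that place. Capitals below mark that base, the ATG and the base after it.
LTV1: ggctgcAgcATGCctcac
RRP1: gtcggcGtcATGGtttcg
NPM1: cgccacCcgATGGaagat
NOP53: tttgacAagATGGcggca
NOP10: taagcgAtcATGTttctc

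LTV1 and NOP10, at opposite ends of MRL, both have the purine and both lack the G, while RRP1 and NOP53, also at opposite ends, have both.

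Within the bounds of 10 members, on the same strand, lie annotated small nucleolar RNA genes, 29 in all. Such RNAs are the guides of the very particles described here. Whether each lies in an intron was not checked. Entries with family names, such as RF00569 in GNL3, may repeat others in the count. The hosts are NOP56, NOP58, DKC1, NCL, WDR43, NOL11, TSR1, NOP53, PPAN and GNL3. Their median mean MRL was 3.87, against 3.60 for the other members. By MRL 7 of the 10 were higher, beside 27 of all 59 members (45.8%) and 22.2% of genes kept. Hosts and other members were not compared by a test. Exons of 30 members overlap a gene on the opposite strand, and since strand use in counting is not given in the sources used here, reads of both genes could be mixed. Exons of 11 members, LTV1, DKC1, BOP1 and EBNA1BP2 among them, overlap a gene on the same strand, 2 such genes in the case of LTV1. For DKC1, BOP1 and EBNA1BP2 that gene is a microRNA gene (MIR664B, MIR7112 and MIR6733). Annotated pseudogenes carry the symbols of 14 members, 1 for LTV1, 2 each for NHP2, NCL and PES1 and 3 each for NIP7 and NOP56, so the values of these members share the limit given for NPM1 and SBDS. Of the 30 members with an opposite-strand overlap, 12 were higher by MRL, and of the 29 without such an overlap, 15. These stand beside 45.8% of all 59 members and 22.2% of genes kept, and members with and without an overlap were not compared by a test.

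The rest of the pathway was counted from lists of further factors. Of 69 other ribosome biogenesis factors, 29 (42.0%) were higher and 4 (5.80%) lower by MRL in the limma test, beside 22.2% and 26.0% of genes kept, with a median of 3.69 ± 0.0891 (SD, n = 3). AATF, a processome cofactor, led with 4.74, 4.63 and 4.97. SHQ1, the chaperone that assembles dyskerin into box H/ACA particles, had a mean of 4.65 ± 0.216, and PA2G4, which binds the exit of the ribosome tunnel, 4.57 ± 0.449. The lowest were NOL12 with 2.29 ± 0.226, UTP23 with 2.43 ± 0.142 and NOL9, a polynucleotide kinase of rRNA processing, with 2.52 ± 0.469. Of the 11 RNA exosome subunits, which trim rRNA precursors, 3 (27.3%, near the 22.2% of genes kept) were higher and 1 (9.09%) lower, with a median of 3.45 ± 0.285. The hexamer CACGTG was in 31.0% of the 58 other factors with a start window, 11.1% of 9 exosome subunits and 6.35% of the ribosomal protein genes.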

How the data were processed

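Members were matched by symbol in a table of 13661 genes from 9 vehicle libraries. The submitters' processing notes name featureCounts and GRCh38. Aligner, counting options and any use of strand were not given in the sources used here. Per library, the authors deposited a signal in which all read counts were scaled by the same factor, and whole reads were recovered for 100% of values within 0.01 reads. The deposited percent is a gene's share over the 3 fractions of a replicate, recomputed to within 5.5e-08. The authors' mean ribosome load, a score, was recomputed to within 4.13e-09 with weights solved from the table. The authors' deposited log2 enrichment, log2 fold change and adjusted p-value carry no stated contrast and were not used. The letter of a library's column was read as its fraction from the table's own naming of leading fractions.

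Genes with a mean of at least 10 reads and reads in each gradient were kept (12720; 941 removed). Tests used limma 3.58.1 in R 4.3.3, two-sided, Benjamini-Hochberg over all genes kept, with a pseudocount of 1 for fractions. For MRL the variance trend follows mean log2 normalized count. It was chosen after the data were seen, because with limma's default trend a test on simulated data gave more false calls than the nominal rate; the default is kept as an alternative. edgeR 4.0.16 and DESeq2 1.42.0 on recovered reads were alternatives for fractions. Coding lengths (12700 genes kept) and overlaps came from GENCODE release 29, start windows from RefSeq.

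The labels call the replicates biological and give each number a batch, so same-numbered libraries are paired by label. Their deviations from the fraction means correlated at -0.539 to 0.391. The highest correlation with a differently numbered library ran from -0.025 to 0.394. It exceeded the same-numbered value in some pairs, such as monosome and heavy 3 (0.280 against -0.539), and not in others. Each gradient above is thus defined by the label alone. The fits without the block are the main ones.

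The members and lists were chosen with earlier results of these data known. The text gives the 4 highest and 4 lowest members by mean MRL, the highest and lowest of each role, NPM1, NCL and FBL; other members were named after their values were seen. Of other factors the 3 highest and 3 lowest are named.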

Additional observations from a re-analysis of the deposited data

How the results depend on the processing

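With 1 gradient left out, members higher by MRL ranged from 10 to 30 and members lower from 3 to 5; over all genes kept the counts were 872 to 3777 higher and 2182 to 3933 lower. For heavy polysome against monosome the ranges were 13 to 30 members higher and 3 to 6 lower, and 1271 to 3996 genes higher and 1866 to 3818 lower. For light polysome against monosome they were 0 to 4 members higher and 1 to 14 lower, and 149 to 2202 genes higher and 413 to 2305 lower. For heavy against light polysome they were 0 to 37 members higher and 0 to 6 lower, and 0 to 3806 genes higher and 0 to 3845 lower. At an unadjusted p under 0.05, limma gave 1057 genes higher and 1433 lower there without gradient 1, and 1319 and 1781 without gradient 3; edgeR and DESeq2 were not run on these subsets. Without light library 2 alone it was 3137 genes higher and 3286 lower.

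Scaling to total reads turned heavy polysome against monosome into 7735 genes higher and 1102 lower, with 49 members higher, from 3145, 3101 and 22. It turned light polysome against monosome into 7390 and 366 genes, with 29 members higher and 1 lower, from 1077, 1303, 3 and 4, and it moved the member median MRL from 3.74 to 4.21. This scaling shifts every gene of a library alike. Using each gene's polysomal percentage (light and heavy summed) instead of MRL called 1538 genes and 14 members higher, and DESeq2 found 7 members lower in light polysomes than in monosomes; the cause of these was not tested. Pseudocounts of 0.5 and 5, no filter on low counts, scaling by TMM, edgeR, and MRL without the log each left the counts of members called within 1.5 times. The main variance trend was chosen after seeing the data; limma's default, a trend on the mean deviation, gave 25 members higher and 3 lower by MRL.

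With the replicate block, 24 members were higher and 3 lower in heavy polysomes against monosomes; beyond UTP4, GTPBP4, NOP10, TSR1 and GNL2, given above, the block changed no member's call.

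Over all 59 members and their alternatives, the sign of the MRL difference changed in 50 values; 535 kept direction and side of the threshold, 45 only lost the call and 19 gained it. For heavy polysome against monosome these were 32, 552, 17 and 48. Among members with values in the text, the sign changed for 11, all not called in the main test. Against the median gene of the same length decile the log2 differences became 0.299 for NOP16, -0.052 for MYBBP1A, -0.0592 for UTP20, 0.0832 for SBDS, -0.0642 for NOB1 and -0.00277 for GNL3L. SBDS was at 0.0572 when centred on the mean gene, 0.0113 with no filter and 0.000985 MRL units on the linear scale, and UTP20 at -0.076 with total reads. By polysome share, in percentage points from the median gene, MYBBP1A was at -7.06, SBDS at 13.4, GNL3L at -9.03, POLRMT at -8.36, NOB1 at -10.9 and NPM1 at -5.78. With 1 gradient left out, the log2 differences ranged from -0.116 to 0.194 for NOB1, from -0.0724 to 0.304 for NPM1, from -0.36 to 0.0775 for NOP56, from -0.423 to 0.0214 for FBL, from -0.0155 to 0.187 for HEATR1, from -0.167 to 0.141 for UTP20, from -0.0421 to 0.0223 for SBDS and from -0.12 to 0.193 for MYBBP1A. The cause of these changes of sign was not tested.

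Depth limits members with few reads, such as UTP20 with 6 in 1 library, and 3 gradients limit the precision of all.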
